A study of Mus musculus with 10 samples.

Results

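Neurons move mitochondria along microtubules to supply axons and dendrites. Kinesin-1 motors, built on the heavy chains KIF5A, KIF5B and KIF5C, and the kinesin-3 motor KIF1B carry cargo towards microtubule plus ends. The adaptors TRAK1 and TRAK2 tie kinesin-1 to the Miro GTPases RHOT1 and RHOT2 on the mitochondrial outer membrane, and Miro binds calcium. Syntaphilin, the product of Snph, holds axonal mitochondria on microtubules, and FEZ1 is a further adaptor of kinesin-1.

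The transcripts of these 10 genes (Kif5a, Kif5b, Kif5c, Kif1b, Trak1, Trak2, Rhot1, Rhot2, Snph and Fez1) were followed in mouse cerebral cortex. They were taken by name from the gene tables, where they are 10 of 24972 genes, and the transcript tables list 32 transcripts of them among 42482. All 10 passed the filter on low counts. The samples were cortices of 10 male mice on the C57BL/6 background, aged 2.5 months and perfused with PBS before dissection. The genotypes were Atad3 nKO (5 mice) and control littermates (5 mice), with 1 library of total RNA per mouse. ATAD3A is a mitochondrial inner membrane protein. What nKO stands for is not written out in the labels. They name neither the deleted exons nor the driver of the deletion, nor the alleles that the control littermates carry.

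The targeted gene was checked first. Atad3a stood at 28.2, 30.8, 33.5, 29.5 and 29.0 TPM (transcript abundance per length, scaled to the same sum in every library) in control libraries 1 to 5 and at 15.2, 15.3, 18.8, 13.8 and 14.8 TPM in nKO libraries 1 to 5. All 5 nKO values lay below all 5 control values, and the log2 fold change on counts was -1.04 (edgeR quasi-likelihood test, adjusted p = 0.00634). Library totals ran from 14812639 to 24161361 estimated counts. Summed levels of the markers fixed for excitatory and inhibitory neurons, astrocytes, oligodendrocytes and their precursors, microglia and endothelial cells overlapped between genotypes. Of the 3 markers fixed for blood and the 3 for choroid plexus, only 1 each passed the filter, Alas2 and Kl. Both overlapped, with Kl above every control in 4 nKO libraries. Its log2 fold change was 0.56 (unadjusted p = 0.0496, edgeR quasi-likelihood test). No marker was at 0 in every library. Excitatory neuron markers summed to 1479 to 2289 CPM (counts scaled for library size) in controls and 1761 to 2174 CPM in nKO libraries. Single markers were less level. In log2 fold change, 4 excitatory markers were above and 2 below 0, with Tbr1 at 0.57 (unadjusted p = 0.0016, edgeR quasi-likelihood test). All 5 astrocyte markers were below 0, with Gja1 at -0.18 (unadjusted p = 0.0134, same test). Flt1 of endothelial cells was at 0.32 and Gad2 of inhibitory neurons at 0.16. Each of these named markers had an adjusted p of 0.820 in that test. The summed list of nuclear RNAs (Malat1, Meg3, Miat and Neat1) did not overlap, at 13655 to 17125 CPM in controls and 17773 to 20991 CPM in nKO libraries. Most of that sum was Malat1, at means of 12264 and 16327 CPM without overlap, which 0.702% of all genes showed with nKO higher. Its log2 fold change was 0.41 (unadjusted p = 0.00017, adjusted p = 0.718, edgeR quasi-likelihood test). Meg3 (0.07), Miat (-0.06) and Neat1 (0.25) each overlapped between genotypes. The part of the summed nuclear RNA shift in the results below was not tested. Long genes also ran higher in nKO libraries than short ones, with a median log2 fold change of -0.07 in the shortest of 4 equal length classes and 0.05 in the longest. In bulk tissue, fewer cells of a type and less RNA per cell cannot be told apart.

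Several of the genes make more than one transcript, and 3 sets of coding exons are shown because they set apart encoded proteins described below. The sequences were cut, 5′ to 3′ on the coding strand, from the GENCODE transcript sequences matched to each RefSeq transcript. Positions are those of the GENCODE exons on GRCm38 (mm10).

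In Rhot1, the most abundant transcript, NM_021536, encodes 631 residues. NM_001163355 adds an exon of 123 bases (chr11:80257514-80257636, plus strand, 41 residues), and NM_001163354 adds a different one of 96 bases (chr11:80255862-80255957, plus strand, 32 residues). Both exons are wholly coding, and the capitals mark the added bases.
Rhot1 exon of NM_001163355: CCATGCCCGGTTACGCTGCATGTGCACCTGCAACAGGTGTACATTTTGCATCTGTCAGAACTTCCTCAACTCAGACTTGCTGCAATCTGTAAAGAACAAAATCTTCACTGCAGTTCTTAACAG
Rhot1 exon of NM_001163354: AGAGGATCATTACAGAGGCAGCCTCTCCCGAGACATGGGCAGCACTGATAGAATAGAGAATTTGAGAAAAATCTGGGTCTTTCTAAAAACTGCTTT

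In Snph, transcript NM_198214 holds a coding exon of 207 bases (chr2:151600257-151600463, minus strand, GC content 67.6%) that the main transcript, NM_001291077, lacks. NM_001291076 uses a later splice site in the same exon. Capitals mark the 99 bases (33 residues) found in NM_198214 alone, and lower case marks the 108 bases (36 residues) that NM_001291076 also has.
Snph exon of NM_198214: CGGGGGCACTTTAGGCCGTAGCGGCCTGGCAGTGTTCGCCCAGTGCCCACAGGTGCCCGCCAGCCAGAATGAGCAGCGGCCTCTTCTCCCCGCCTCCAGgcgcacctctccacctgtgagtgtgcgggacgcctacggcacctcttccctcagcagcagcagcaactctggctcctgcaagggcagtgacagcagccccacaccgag

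In Kif1b, the main transcript NM_001290995 carries 2 small exons and an exon extension that set it apart from the other long form, NM_207682. The short form NM_008441 has 21 exons, where NM_001290995 has 49, and whether it holds these segments was not examined. The 2 small exons have 18 bases (chr4:149265345-149265362, 6 residues) and 42 bases (chr4:149261160-149261201, 14 residues), and the extension has 78 bases (chr4:149258004-149258081, 26 residues), all on the minus strand. The capitals mark the added bases.
Kif1b small exon: GATAACTGCACAAGCAAG
Kif1b small exon: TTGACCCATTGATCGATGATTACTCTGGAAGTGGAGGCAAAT
Kif1b exon extension: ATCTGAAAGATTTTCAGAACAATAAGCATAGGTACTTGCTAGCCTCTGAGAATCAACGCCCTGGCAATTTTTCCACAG

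The 10 genes spanned a 19.0-fold range of TPM in control cortex. Kif5a was the most abundant (936 ± 40.2 TPM, SD, n = 5), above 99.3% of tested genes, and was followed by Kif5c, above 98.9%. Fez1 and Kif1b came next, with overlapping ranges, and then Kif5b. Snph, Trak2, Trak1 and Rhot1 formed a group at 82.1 to 97.9 TPM in which each gene overlapped its neighbour in rank. Rhot2 was the lowest (49.4 ± 1.18 TPM, SD, n = 5), above 69.4% of tested genes, and lay below Rhot1 in all 5 control libraries. The nKO libraries kept the same order of means.

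**Figure D1:**
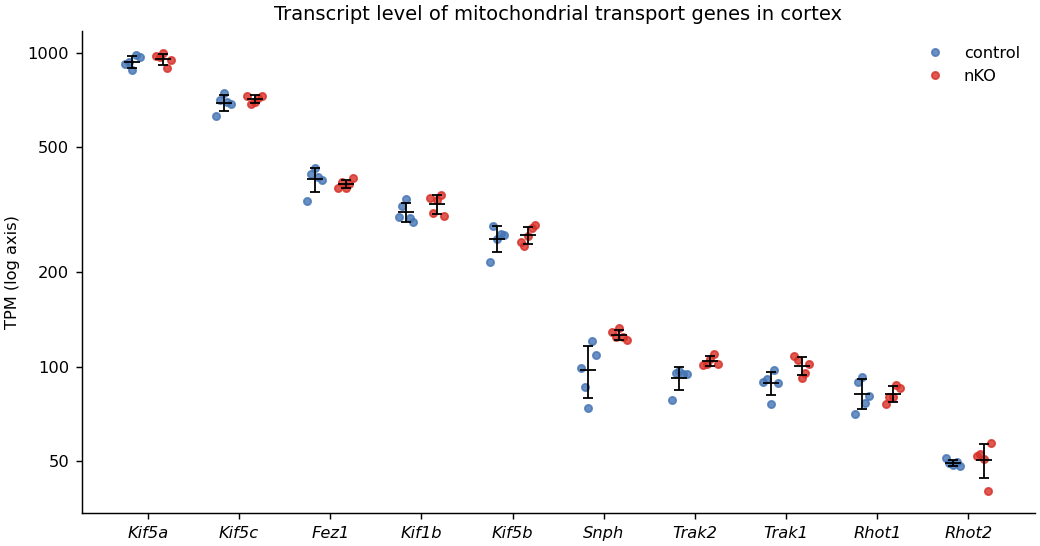
Level of each gene in TPM (log axis) in 5 control (blue) and 5 nKO (red) libraries; each point is 1 library, and the bars give the mean ± SD. The genes run from Kif5a at 881 to 996 TPM down to Rhot2 at 40.2 to 57.0 TPM, and the colours separate without overlap only for Snph and Trak2.

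Between genotypes, none of the 10 genes passed the 5% threshold, which 0.0139% of the 14378 tested genes passed (2 genes, Atad3a and Fam155a). At an unadjusted p under 0.05 the count was 1 of the 10, Trak2, beside 5.65% of all genes in either direction and 3.36% with nKO higher. The groups did not overlap for 2 of the 10 genes as TPM, Snph and Trak2, beside 2.56% of all genes, and for 1 as CPM, Trak2, beside 1.38%. No alternative scaling, filter or test, DESeq2 and limma-voom included, called any of the 10. The log2 fold change of nKO over control was above 0 for 6 genes and below 0 for 4, where 47.8% of all genes were above 0. Its median was 0.0081 over the 10 genes and -0.0078 over all genes. In this fit each of the 10 intervals at the 95% level lay within a 1.5-fold change in either direction. For Snph this held only barely, with an upper limit of 1.499-fold. Its estimate was larger in some alternatives, such as 0.39 (SE 0.15) without control 1 and nKO 4. Intervals of the alternatives were not set against this bound.

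**Figure D2:**
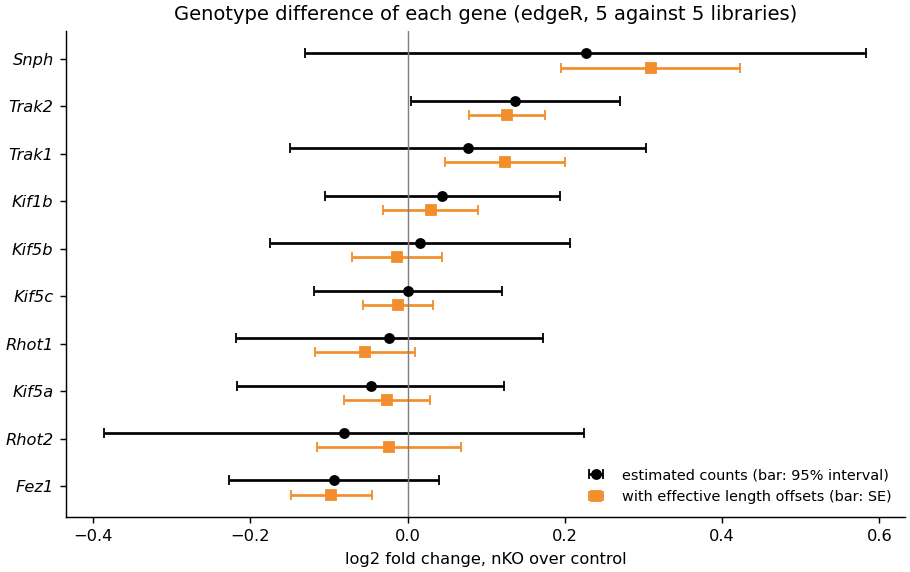
Log2 fold change of nKO over control for each gene, from estimated counts (black circles, bars: 95% interval) and with offsets for effective length (orange squares, bars: SE). Snph has the highest estimate, 0.23 on counts and 0.31 with offsets, and Trak2 is the only gene whose interval on counts leaves out 0.

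The kinesin-1 heavy chains showed no difference between genotypes beyond the spread of their libraries. Kif5a, the neuron-specific chain with a long tail (gene 16572, chr10:127225695-127266348), stood at 919, 930, 881, 984 and 966 TPM in controls and 972, 967, 996, 894 and 945 TPM in nKO libraries. The 2 sets overlapped almost fully. On counts the log2 fold change was -0.05 (adjusted p = 0.940, edgeR quasi-likelihood test), with an SE of 0.08 and a 95% interval of -0.22 to 0.12.

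Kif5c, the other chain enriched in neurons (gene 16574, chr2:49619286-49774778), was at 627, 708, 744, 696 and 688 TPM in controls and 729, 686, 698, 718 and 729 TPM in nKO libraries. Control 1 was the lowest of the 10 libraries and control 3 the highest. The fitted difference (log2) was 0.00037 (SE 0.06, 95% confidence limits -0.12 and 0.12, unadjusted p = 0.995 by the edgeR quasi-likelihood test).

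Kif5b, the chain that most cell types use (gene 16573, chr18:6201005-6241524), was at 216, 280, 255, 265 and 262 TPM in controls and 250, 242, 260, 276 and 283 TPM in nKO libraries. Control 1 was again lowest. On counts, nKO over control gave a log2 ratio of 0.02 ± 0.09 (SE), with 95% limits of -0.18 and 0.21 (unadjusted p = 0.861, edgeR quasi-likelihood test). GENCODE places 2 antisense genes over Kif5b, and the labels do not say whether reads were counted by strand.

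The mix of heavy chains was also alike in the 2 genotypes. Kif5a made up 49.7% ± 2.04 of the summed Kif5 TPM in controls and 49.5% ± 1.64 in nKO libraries (SD, n = 5 each). Kif5c contributed 36.7% ± 1.65 and 36.9% ± 0.942, and Kif5b 13.5% ± 0.833 and 13.6% ± 0.892, in the same order. Summed Kif5 TPM was 1884 ± 72.1 in controls and 1929 ± 34.2 in nKO libraries, with overlapping ranges.

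Kif1b (gene 16561, chr4:149176319-149307773) encodes a kinesin-3 motor whose short form, KIF1B alpha, was described as a mitochondrial motor, while the long form carries synaptic vesicle precursors. Its TPM was 299, 325, 343, 298 and 289 in controls and 345, 309, 339, 352 and 301 in nKO libraries, with both sets mixed. edgeR put the log2 difference at 0.04, with an SE of 0.07, 95% limits of -0.11 and 0.19 and an unadjusted p of 0.536 (quasi-likelihood test).

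Most Kif1b transcripts in cortex were of the long kind. NM_001290995 (1816 residues), with the 3 added coding segments printed above, held 92.3% ± 0.719 of Kif1b TPM in controls and 91.5% ± 1.57 in nKO libraries. The short form NM_008441 (1150 residues) held 6.32% ± 0.68 and 6.69% ± 0.68. Its level was 16.4, 21.2, 19.6, 20.6 and 20.1 TPM in controls and 23.8, 24.0, 21.9, 21.9 and 18.4 TPM in nKO libraries. Of the nKO values, 4 lay above every control and 1 lay among them. The transcript's log2 fold change was 0.13 (SE 0.08, unadjusted p = 0.149 by the edgeR quasi-likelihood test). NM_207682, the long form without the 3 segments, held 1.41% ± 0.14 and 1.79% ± 1.21. Its share ran from 1.25% to 1.53% in controls, while nKO libraries ran from 0 estimated reads in nKO 1 to 3.3% in nKO 2.

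Of the TRAK adaptors, Trak2 was the only one of the 10 genes whose groups did not overlap on either scale. TRAK2 is the adaptor best known from dendritic transport. Its gene (gene 70827, chr1:58900449-58974345) stood at 78.1, 95.6, 97.0, 94.5 and 94.7 TPM in controls and 101, 102, 106, 110 and 102 TPM in nKO libraries. Every nKO library was above every control, and control 1 lay far below the other controls. As CPM the values were 201, 227, 232, 228 and 223 in controls and 235, 238, 247, 258 and 243 in nKO libraries, again without overlap.

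The difference in Trak2 was small and did not pass the threshold. It came to 0.14 on the log2 scale (unadjusted p = 0.0434, adjusted p = 0.820, edgeR quasi-likelihood test), with an SE of 0.06 and a 95% interval of 0.0047 to 0.27, and without control 1 and nKO 4 it was 0.07 (unadjusted p = 0.210). Groups without overlap and with nKO higher occurred in 2.25% of all genes as TPM and in 0.702% as CPM. Trak2 transcripts are all counted under NM_172406.

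TRAK1, the adaptor best known from axons, gave a similar picture with more spread. Trak1 (gene 67095, chr9:121297502-121474919) was at 89.4, 91.7, 76.3, 97.3 and 88.8 TPM in controls and 108, 105, 91.9, 95.6 and 102 TPM in nKO libraries. Of the nKO libraries, 3 lay above every control and 2 among the higher controls. A log2 fold change of 0.08 resulted (SE 0.10, 95% limits -0.15 and 0.30, unadjusted p = 0.478, edgeR quasi-likelihood test). It was 0.0058 without control 3, 0.15 without control 1 and 0.19 without control 1 and nKO 4 (unadjusted p = 0.0552).

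The balance of the 2 adaptors was alike in the genotypes, and Trak1 made up 49.1% ± 3.43 of summed Trak TPM in controls and 49.1% ± 2.45 in nKO libraries. The sum itself ran at 167, 187, 173, 192 and 183 TPM in controls and at 209, 207, 198, 206 and 203 TPM in nKO libraries. Its ranges did not overlap, with means of 181 ± 10.1 and 204 ± 4.26 TPM (SD, n = 5 each). The sum was not tested. Trak2, which did not overlap by itself, made up 50.9% of it in each genotype, so the sum is no separate result. Among all single genes, TPM did not overlap with nKO higher in 2.25%, and the median log2 ratio of TPM means was 0.05.

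Trak1 reads were spread over several transcripts. In controls, NM_001357969 held 36.3% of Trak1 TPM, NM_001357970 20.4%, NM_001357968 17.4% and NM_001357972 15.5%, and the nKO means were 34.4%, 17.7%, 16.4% and 16.0%. No Trak1 transcript differed at an unadjusted p under 0.05 in the edgeR quasi-likelihood test. The test of relative use over Trak1 transcripts (Simes) gave an unadjusted p of 0.963 by edgeR and of 0.000316 by limma diffSplice, with an adjusted p of 0.150 in the limma test.

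The Miro genes did not differ between genotypes beyond their spread. Rhot1, which encodes MIRO1, the main Miro of axonal transport (gene 59040, chr11:80208610-80267907), was at 70.9, 89.1, 92.9, 76.7 and 80.9 TPM in controls and 76.3, 80.0, 80.0, 87.6 and 85.7 TPM in nKO libraries. All nKO values lay inside the control range. The fitted difference (log2) was -0.02 (SE 0.09, 95% confidence limits -0.22 and 0.17, unadjusted p = 0.800 by the edgeR quasi-likelihood test).

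Rhot1 used 3 main splice forms, told apart by the exons printed above. The form without either exon, NM_021536, held 43.8% ± 4.68 of Rhot1 TPM in controls and 44.6% ± 5.55 in nKO libraries. NM_001163355 (672 residues) held 30.4% ± 5.41 and 30.0% ± 5.03, and NM_001163354 (663 residues) 18.4% ± 4.22 and 19.1% ± 2.47. For each of the 3 the genotypes differed by under 1 SD of the libraries, so the shares of these forms were alike at this spread. Whether the rarer Rhot1 transcripts hold either exon was not examined. Of these, NM_001362870 held 1.66% ± 0.782 in controls and 0.463% ± 0.42 in nKO libraries, with overlapping ranges. Its relative use had an unadjusted p of 0.0397 (edgeR diffSpliceDGE), and the Simes test over Rhot1 transcripts one of 0.199.

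Rhot2, which encodes MIRO2 (gene 214952, chr17:25838457-25844525), was at 51.1, 49.3, 48.5, 49.9 and 48.2 TPM in controls and 52.0, 52.6, 50.8, 40.2 and 57.0 TPM in nKO libraries. nKO 4 was the lowest and nKO 5 the highest of the 10 libraries. On counts, nKO over control gave a log2 ratio of -0.08 ± 0.14 (SE), with 95% limits of -0.39 and 0.22 (unadjusted p = 0.579, edgeR quasi-likelihood test), and without control 1 and nKO 4 it was 0.13.

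Rhot1 made up 62.3% ± 3.02 of the summed Miro TPM in controls and 61.9% ± 3.76 in nKO libraries. The sum was 131 ± 8.12 and 132 ± 6.04 TPM (SD, n = 5 each). The protein-coding gene Wdr90 overlaps Rhot2 on the same strand, so reads from the shared stretch could be divided between them.

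Snph had the highest estimate of the 10 genes, and the scale of the values decided whether its groups overlapped. Syntaphilin opposes the motors described above by docking axonal mitochondria. Snph (gene 241727, chr2:151590549-151632607) stood at 98.8, 86.5, 74.1, 121 and 109 TPM in controls and 129, 124, 133, 124 and 122 TPM in nKO libraries. Every nKO library was above every control, by little over control 4 and by much over control 3, and the nKO values were close to each other. The means were 97.9 ± 18.4 and 126 ± 4.54 TPM (SD, n = 5 each), while the median log2 ratio of TPM means over all genes was 0.05.

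As CPM, which leaves effective length aside, Snph was at 181, 108, 92.2, 161 and 146 in controls and 171, 168, 178, 135 and 154 in nKO libraries. These groups overlapped, with control 1 highest of all. On counts nKO libraries were higher by 0.23 on the log2 scale (unadjusted p = 0.192, adjusted p = 0.853, edgeR quasi-likelihood test), with an SE of 0.16 and a 95% interval of -0.13 to 0.58. With offsets for effective length it was 0.31 (SE 0.11, unadjusted p = 0.0175, adjusted p = 0.485, same test), and 9.7% of all genes were under an unadjusted 0.05 in that fit, 5.5% with nKO higher. Without control 1 and nKO 4 it was 0.39 on counts (unadjusted p = 0.0268), and over all alternatives it ran from 0.10 to 0.39. Removing the trend on transcript length gave 0.19 for Snph and 0.08 for Trak2. Of the 10 genes, all but Rhot2 (2863 bases) and Fez1 (1737 bases) were longer than the median tested gene (2990 bases).

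The main Snph transcript, NM_001291077 (459 residues), lacks the exon printed above. It was at 49.6, 40.0, 42.3, 58.0 and 66.7 TPM in controls and 73.0, 77.5, 71.5, 67.8 and 81.2 TPM in nKO libraries. Every nKO value was above every control value, which 1.64% of tested transcripts showed in either direction. Its log2 fold change was 0.39 (SE 0.19, unadjusted p = 0.0646, edgeR quasi-likelihood test).

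The 2 Snph transcripts with the exon were far less steady. NM_198214 (528 residues) ran from 19.1% to 53.8% of Snph TPM in controls and from 0 to 45.1% in nKO libraries. NM_001291076 (495 residues) ran from 0 to 28.0% and from 0 to 33.2%. NM_001291076 was listed at 0 in control 2 and nKO 4, and NM_198214 in nKO 5.

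Fez1 (gene 235180, chr9:36821398-36878926) was at 336, 412, 430, 401 and 394 TPM in controls and 370, 388, 371, 382 and 399 TPM in nKO libraries. Control 1 was the lowest of the 10 libraries, and the other controls lay at or above most nKO libraries. The fitted log2 value was -0.09 (unadjusted p = 0.155, adjusted p = 0.843, edgeR quasi-likelihood test), with an SE of 0.06 and a 95% interval of -0.23 to 0.04.

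Among the transcripts of the 10 genes, 28 were tested, and 0 passed 5% in the edgeR quasi-likelihood test, where 0% of 22234 transcripts did. At an unadjusted p under 0.05 there were 3, beside 3.65% of all transcripts: NM_172406 of Trak2 and NM_183171 and NM_001357614 of Fez1. The main Fez1 transcript, NM_183171 (1738 bases), was at 314, 379, 398, 356 and 358 TPM in controls and 329, 317, 311, 338 and 324 TPM in nKO libraries. Control 1 lay among the nKO values and the other 4 controls lay above all of them. Its log2 fold change was -0.21 (SE 0.05, unadjusted p = 0.0013, adjusted p = 0.9996, edgeR quasi-likelihood test).

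Fez1 had the smallest p of the 10 genes in the edgeR test of relative transcript use. NM_183171 held 93.5%, 92.1%, 92.6%, 88.8% and 91.0% of Fez1 TPM in controls and 89.0%, 81.6%, 83.8%, 88.5% and 81.3% in nKO libraries, with 4 nKO libraries below every control. The minor transcript NM_001357614 (1587 bases) held 0, 1.54%, 0, 1.27% and 0 in controls and 3.49%, 11.6%, 8.80%, 2.75% and 12.2% in nKO libraries. It was named after its values were seen, since its mean share is under the 10% set for naming a transcript.

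The shares of NM_001357614 did not overlap, which 0.377% of 12749 transcripts showed with nKO higher. They rest on few reads, an estimated 0, 63.5, 0, 51.8 and 0 in controls and 122, 450, 318, 112 and 415 in nKO libraries. Relative to the other Fez1 transcripts its use was higher in nKO libraries by 2.63 on the log2 scale (edgeR quasi-likelihood diffSpliceDGE, adjusted p = 0.0429). The adjustment ran over the 12749 transcripts of genes with 2 or more tested transcripts, of which 0.0157% got such a call. The transcript was listed at 0 in 3 controls, so it could not have passed the filter on low counts without the nKO libraries, where it was higher. The lack of overlap and the call are therefore not independent of that filter. How far the estimate rests on the 3 controls was not tested.

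At the level of the gene, the same edgeR test combined over Fez1 transcripts (Simes) gave an adjusted p of 0.0797, so that 0 of the 6 genes with several tested transcripts passed 5%, where 0.0211% of 4732 genes did. Leaving out 1 library at a time gave adjusted p from 0.0177 to 0.223 in this edgeR test, under 5% without control 2 (0.0177) and without nKO 4 (0.0401). The gene-level F test of edgeR gave an adjusted p of 0.461 and limma diffSplice one of 0.491. How reads were divided among the Fez1 transcripts was estimated upstream, and the error of that step was not modelled.

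**Figure D3:**
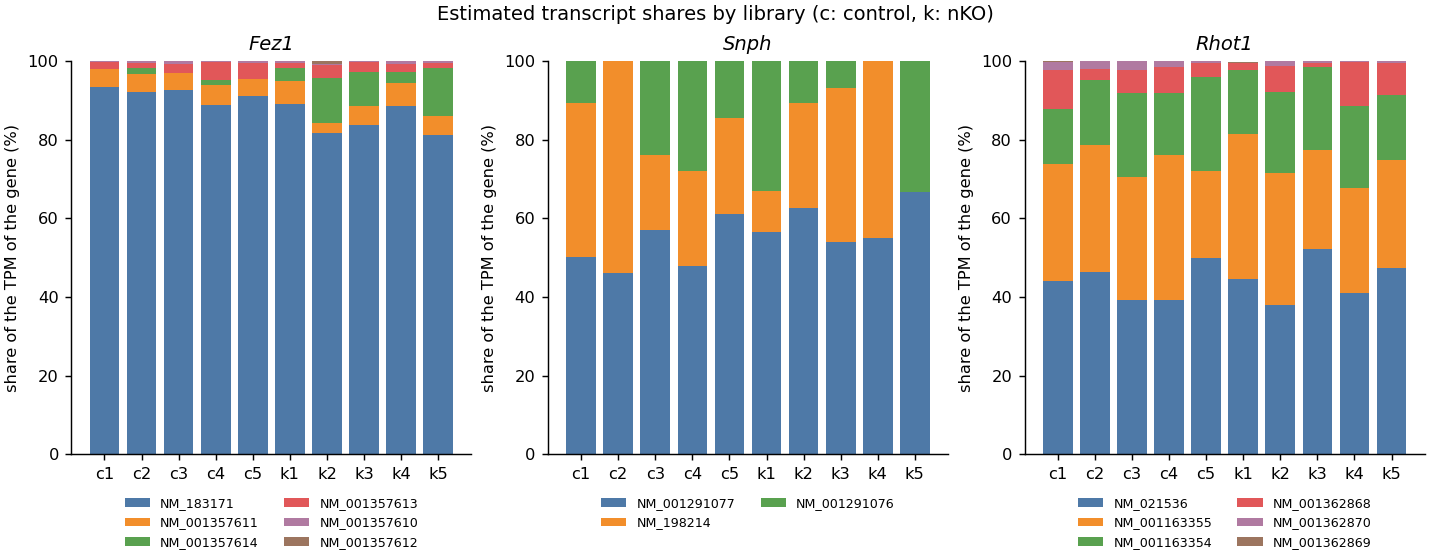
Share of each gene's TPM held by each transcript in control (c1 to c5) and nKO (k1 to k5) libraries, for Fez1, Snph and Rhot1. For Fez1, the green segment (NM_001357614) is at most 1.54% in controls and 2.75% to 12.2% in nKO libraries, while in Snph the orange and green segments vary as much within a genotype as between genotypes.

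Effective length differed between libraries more for some of these genes than for others. It is Salmon's estimate of the usable length of a gene in 1 library. For Snph it was 4413 bases in control 1 and 2923 bases in nKO 4, and for Rhot2 it was 2746 and 1933 bases. Over 13320 genes of at least 1000 bases, the ratio of effective lengths in control 1 over nKO 4 followed GC content with a Spearman correlation of 0.91, across genes, which are not independent replicates. Its median was 0.89 in the lowest of 4 equal GC classes and 1.51 in the highest.

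The 10 genes sit at both ends of that relation. Snph, with a GC content of 58.5%, had a ratio of 1.51, Rhot2 (55.2%) 1.42, Trak1 (56.6%) 1.26 and Kif5a (53.8%) 1.18. The others ran from 0.89 for Rhot1 (43.8%) to 1.02 for Fez1 (52.7%). Dividing CPM by effective length lowered the SD of log2 values within genotypes from 0.31 to 0.21 for Snph, from 0.26 to 0.15 for Rhot2 and from 0.13 to 0.07 for Kif5a. For Kif5c, Kif1b, Trak2 and Fez1 the SD moved little.

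**Figure D4:**
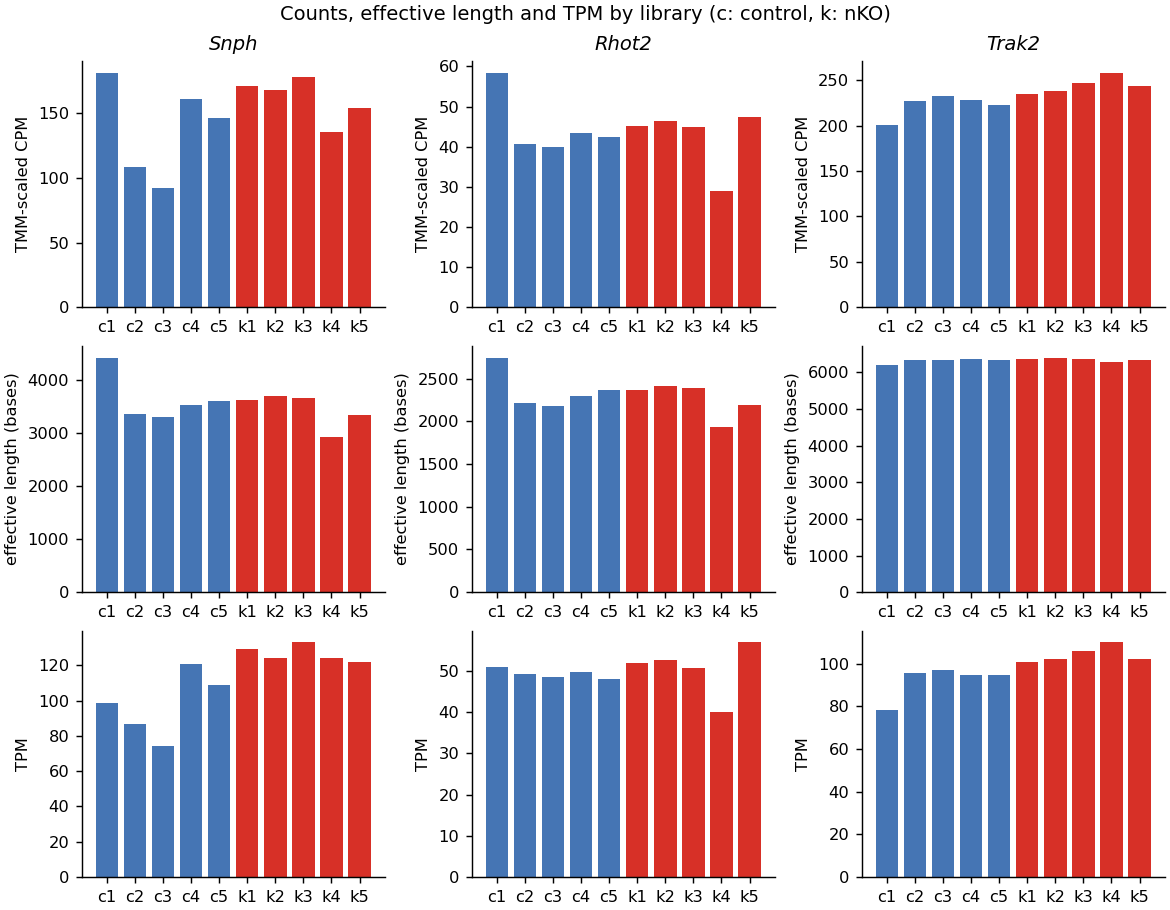
Counts (TMM-scaled CPM, top), effective length (bases, middle) and TPM (bottom) of Snph, Rhot2 and Trak2 in each control (c, blue) and nKO (k, red) library; bars start at 0 and stand for 1 library. For Snph and Rhot2 the effective length is highest in control 1 and lowest in nKO 4, and for Trak2 it is nearly level.

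Kif5a, Trak1, Rhot2 and Snph, a set seen in the data, moved together across libraries within genotypes. Their 6 pairs had Pearson's r from 0.66 to 0.90 on log2 CPM, and their 24 pairs with the other 6 genes were all negative, from -0.93 to -0.27. On log2 TPM the 6 pairs ran from 0.05 to 0.76 and the 24 from -0.70 to -0.04. These are descriptions over 10 libraries that differ in depth and in effective length, and the 4 genes are the 4 of highest GC content.

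**Figure D5:**
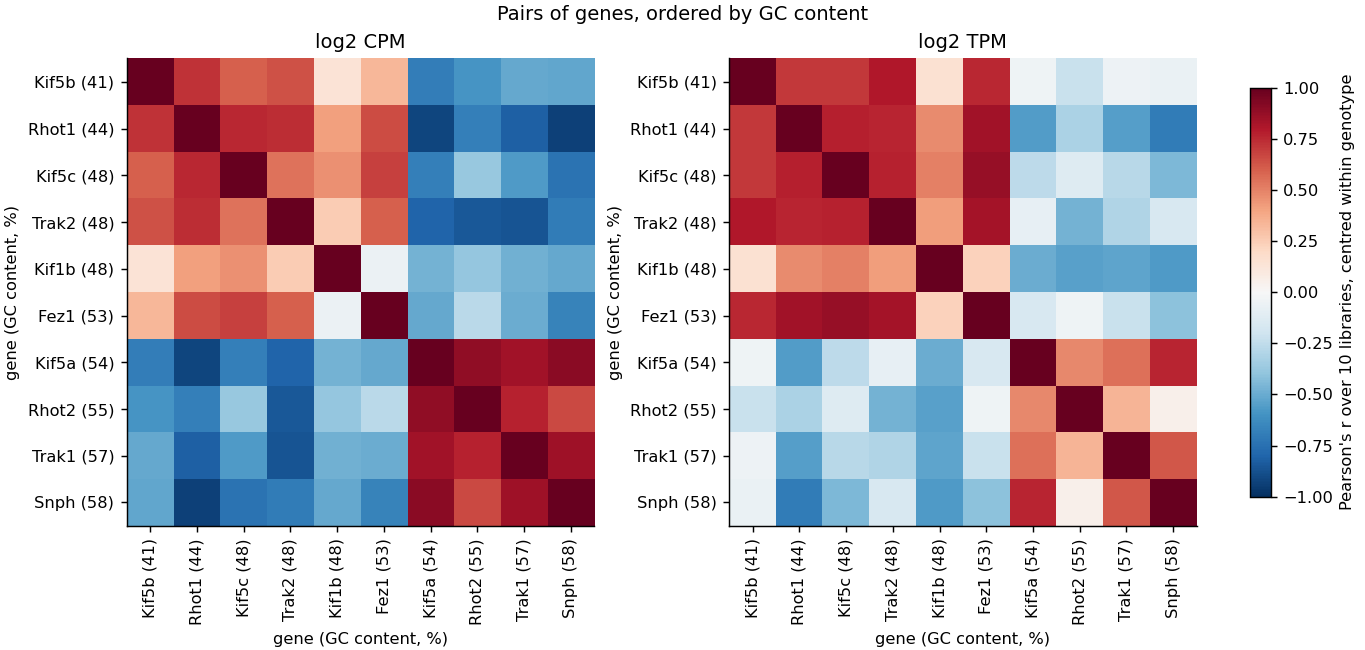
Pearson's r between log2 values of each pair of genes over 10 libraries, centred within genotype, on CPM (left) and TPM (right), with genes ordered by GC content (%). The 4 genes of highest GC content form a positive block in the lower right corner (0.66 to 0.90 on CPM), weaker on TPM (0.05 to 0.76).

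The same measure, Pearson's r of log2 CPM centred within genotypes over 10 libraries, named the genes whose pattern was most like each of the 10. They were Rnf220 (0.988) and Map2k7 (0.985) for Kif5a, Aebp2 (0.994) and Rab6a (0.985) for Kif5b, and Slc35e2 (0.973) and Zfp937 (0.969) for Kif5c. Kif1b was followed most closely by Raph1 (0.976) and Ppp2r5e (0.968). For the adaptors they were Slc36a1 (0.979) and Prag1 (0.967) for Trak1 and Pcdh9 (0.982) and Ilf2 (0.976) for Trak2. Rhot1 was closest to Zfp442 and Zfp729b (0.99 each), and Rhot2 to Prkcz (0.988) and Wdr18 (0.977). Snph was closest to Tpra1 (0.980) and Ccar2 (0.979), and Fez1 to Wdr3 (0.963) and Chchd4 (0.954). None of the 10 genes appeared in another's pair. Each pair was picked for having the highest r among all genes compared, so high values follow in part from that choice. No background for r was worked out. The ranking was made on CPM, where r among Kif5a, Trak1, Rhot2 and Snph was higher than on TPM. Whether these likenesses hold on TPM, or reflect shared regulation, was not tested.

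The wider transport machinery was read from 6 lists of 80 genes, of which 77 were tested. None of the 77 passed 5% in the edgeR quasi-likelihood test. At an unadjusted p under 0.05 there were 9 (11.7%, 8 higher and 1 lower in nKO libraries), beside 5.65% of all genes. With offsets for effective length there were 12 (15.6%, beside 9.7% of all genes), and without control 1 and nKO 4 there were 11 (14.3%, beside 9.12%). With a trend on transcript length taken out of each library there were 2 (2.60%, beside 4.47%), 1 in each direction. The direction was even, with 39 above and 38 below 0.

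Kinesin light chains and cargo adaptors had 4 genes above and 8 below 0, with a median log2 fold change of -0.06 against -0.0078 over all genes. Klc1, the main neuronal light chain, had the smallest p of the list, at 498 ± 70.7 CPM in controls and 440 ± 38.7 CPM in nKO libraries (log2 fold change -0.18, SE 0.10, unadjusted p = 0.0861, edgeR quasi-likelihood test). Fez2, the paralogue of Fez1, had a log2 fold change of -0.15 and Klc4 one of -0.24. The other cargo kinesins split 8 to 4 with a median of 0.02, led by Kif21b at 0.29 (SE 0.15, unadjusted p = 0.0819), Kif3b at 0.09 and Kif13b at 0.08.

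Dynein, the motor for transport towards the cell body, held the gene of smallest p in the 6 lists. Dynll2, a dynein light chain, was at 116 ± 29.6 CPM in controls and 168 ± 13.9 CPM in nKO libraries, with overlapping ranges (log2 fold change 0.53, SE 0.15, unadjusted p = 0.0032, adjusted p = 0.820, edgeR quasi-likelihood test). Dync1li2, a light intermediate chain, had a log2 fold change of 0.22 (unadjusted p = 0.0309), and the intermediate chain Dync1i1 one of -0.14 (unadjusted p = 0.0516). The 10 tested dynein genes split 6 to 4 around 0.

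Dynactin and the dynein adaptors split 7 to 10. The adaptor Hook3 was at 221 ± 16.1 and 265 ± 27.1 CPM (log2 fold change 0.26, SE 0.08, unadjusted p = 0.0072 by the edgeR quasi-likelihood test), Dctn2, the dynactin subunit dynamitin, had a log2 fold change of -0.20 (unadjusted p = 0.0322) and Hook1 one of 0.20. Among Miro partners, 6 were above and 9 below 0. Mfn1, a mitofusin of the outer membrane, was at 66.8 ± 5.61 and 76.7 ± 5.30 CPM without overlap (log2 fold change 0.20, unadjusted p = 0.0260), and groups without overlap and nKO higher made up 0.702% of genes. Cenpf had a log2 fold change of 0.74 (unadjusted p = 0.0345) at only 0.779 ± 0.226 and 1.31 ± 0.545 CPM, and the mitophagy kinase Pink1 one of -0.15 (unadjusted p = 0.274).

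Microtubule-associated proteins had the highest median of the 6 lists, 0.12, with 8 genes above and 3 below 0. The 3 genes of smallest p were Dclk1, at 1364 ± 78.3 and 1534 ± 68.2 CPM (log2 fold change 0.17, unadjusted p = 0.0152), Map7, a cofactor of kinesin-1, at 71.3 ± 7.83 and 81.2 ± 2.29 CPM without overlap (0.19, unadjusted p = 0.0416), and Map1b, at 1724 ± 172 and 1972 ± 211 CPM (0.19, unadjusted p = 0.0480). All had an adjusted p of 0.820 in the edgeR quasi-likelihood test.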

How the data were processed

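Per the labels' protocols, total RNA was extracted with TRIZOL, treated with DNase and made into stranded libraries with ribosomal RNA removed. Salmon, bcl2fastq and DESeq2 are listed with the build mm10 in the submitters' processing notes, with no role or version. For the RefSeq release, nothing is given in the sources used here. Per the file headers, the authors deposited estimated counts (reads assigned per gene or RefSeq transcript), TPM (per effective length, with an equal sum in each library), lengths and effective lengths in bases.

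Estimated counts were rounded, filtered with filterByExpr (minimum count 10, minimum total 15), scaled by TMM and tested with the quasi-likelihood test of edgeR 4.0.16 (robust; R 4.3.3), with Benjamini-Hochberg adjustment over 14378 genes or 22234 transcripts. Relative transcript use was tested with diffSpliceDGE, with adjustment over 12749 transcripts or 4732 genes. Alternatives used DESeq2 1.42.0, limma 3.58.1 and sva 3.50.0, other filters and offsets, and fewer libraries. The scripts were tested on simulated data. RefSeq transcripts were assigned to genes with a RefSeq table (96.9% matched), and gene values equalled transcript sums within 2 reads for 99.5% of 24776 genes. Exons came from GENCODE M21 on GRCm38.

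The 10 genes, the lists and the libraries left out were chosen with earlier results of these data known. Named in the text are the 10 genes, their transcripts with a mean share of at least 10%, up to 3 genes of smallest p per list, any list gene past 5%, and the 2 genes of most similar pattern to each of the 10. Rarer transcripts of Kif1b, Fez1, Rhot1 and Rhot2 were named after their values were seen. So were the single cell type markers with an unadjusted p under 0.05. Replicate numbers only name the libraries. The labels call the replicates biological; they give no batch, and all controls have lower running numbers than the nKO libraries, so genotype and order of handling, if the numbers follow it, cannot be told apart. A deposited score table holding none of the 10 genes was not used here.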

Additional observations from a re-analysis of the deposited data

Results flagged for a closer look

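Of 86 groups of 5 values examined, 8 held a library far from the other 4 (gap to the nearest value over the whole range above 0.71, which chance exceeds in about 1 in 20 groups). Trak2 in control 1 was lowest of the controls at 78.1 TPM, with the others at 94.5 to 97.0 TPM. Rhot2 in control 1 was highest of the controls at 58.4 CPM, with the others at 40.0 to 43.5 CPM. Rhot2 in nKO 4 was lowest of its group at 29.0 CPM, with the others at 44.8 to 47.4 CPM. In the same library the share of Rhot1 in the summed Miro TPM was highest, at 68.5% against 59.5% to 61.2%, and that of Rhot2 therefore lowest, at 31.5% against 38.8% to 40.5%. The share of NM_001357969 in Trak1 was also lowest in nKO 4, at 27.4% against 35.5% to 36.9%.

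The last pair concerns Rhot2 transcripts. NM_145999 (2863 bases) held 100% of Rhot2 TPM in the other 9 libraries and 0 in nKO 2, where NM_001364950 (2867 bases) held 100%, with 784 estimated reads. The gene total of Rhot2 in nKO 2, at 52.6 TPM, lay within the range of the other nKO libraries.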

How the results depend on the processing

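The count of the 10 genes past 5% was 0 in all 23 alternatives, and that of their transcripts was 0 in all 13 run. Genes called over the whole table numbered 2 in the reported fit and 2 to 3 with 1 library left out. The DESeq2 Wald test called 5, Malat1 among them. Among the 10 genes, the count with a call in relative transcript use was 0, and 0 to 1 with 1 library left out, the 1 being Fez1 without control 2 or nKO 4. Over all 4732 genes tested for it, 1 was called in the reported fit. Of the 77 pathway genes, 9 had an unadjusted p under 0.05, against 12 with effective length offsets, 11 without control 1 and nKO 4, and 2 with the length trend removed; these settings were chosen for this count after seeing the data. Snph, Trak2 and Fez1 kept their direction in all 23 alternatives.

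Some estimates changed sign. For Kif5c (0.00037 as reported) the log2 fold change was -0.0064 with DESeq2 size factors, -0.0126 with library size alone, -0.0065 with DESeq2, -9.98e-05 with limma-voom, -0.0056 with no filter, -0.0082 with the CPM filter, -0.0124 with effective length offsets, -0.0609 with the length trend removed, -0.0069 from transcript sums and -0.0276 without control 1 and nKO 4. For Kif5b it was -0.0138 with effective length offsets, -0.0391 with the length trend removed, -0.0751 without control 1 and nKO 4 and -0.0310 without control 1 and control 3. Kif1b was -0.0403 with the length trend removed. With 1 surrogate variable Trak1 was -0.0136 and Rhot1 0.0411. Without control 1 and nKO 4, Kif5a was 0.0392 and Rhot2 0.132, and Rhot2 was 0.0105 without control 1 and control 3. Of the transcripts, Trak1 NM_001357969 was -0.000164 with the CPM filter, and limma-voom gave -0.214 for Snph NM_001291076 and -0.0022 for Kif5b NM_008448. Without control 1 and nKO 4, Kif5a NM_001039000 was 0.0436, Rhot1 NM_001163354 -0.180 and Kif5b NM_008448 -0.0707. The causes were not tested.

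With 1 library left out at a time, the log2 fold change ran from -0.0371 to 0.0653 for Kif5b, -0.0149 to 0.0253 for Kif5c, -0.122 to 0.0304 for Rhot2 and -0.0757 to 0.0318 for Rhot1. With no change of sign, it ran from 0.0058 to 0.153 for Trak1, 0.104 to 0.154 for Trak2, 0.112 to 0.346 for Snph, -0.124 to -0.0687 for Fez1, 0.0094 to 0.0794 for Kif1b and -0.0851 to -0.0002 for Kif5a. For transcripts it ran from -0.102 to 0.149 for Rhot1 NM_001163354, -0.0624 to 0.0639 for Rhot1 NM_021536, -0.146 to 0.102 for Trak1 NM_001357968, -0.0714 to 0.118 for Trak1 NM_001357969, -0.0071 to 0.294 for Trak1 NM_001357972, -0.0414 to 0.0622 for Kif5b NM_008448, -0.0245 to 0.0206 for Kif5c NM_008449, -0.0091 to 0.0659 for Kif1b NM_001290995, -0.533 to 0.117 for Snph NM_198214 and -0.0922 to 0.811 for Snph NM_001291076.

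No paired analysis was possible because nothing in the labels ties a control to an nKO library by litter, batch or day, and the numbers 1 to 5 used here only name the libraries of each genotype. Precision was limited by the spread between 5 libraries a group, with a median SE of 0.123 on the log2 scale over all genes, by the few reads behind minor transcripts, and by upstream division of reads among transcripts, whose error was not modelled.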
